A study of Mus musculus with 10 samples.

Results

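The genes described here carry the signals that bring monocytes into a tumor and keep macrophages alive there. They are the chemokine genes Ccl2, Ccl7, Ccl8 and Ccl12, the chemokine receptor genes Ccr2 and Cx3cr1, the colony stimulating factor genes Csf1 and Csf2, the cytokine gene Il34 and the receptor gene Csf1r. They were chosen by name, through the Ensembl identifier of each symbol, and make up 10 of the 37417 genes in the count table. All 10 were found. CCL2 and its relatives CCL7 and CCL12 bind CCR2 on classical monocytes and draw them out of bone marrow and blood. CSF1 and IL-34 are different proteins that bind the same receptor tyrosine kinase, CSF1R, on which most tissue and tumor macrophages depend, whereas CSF2 (GM-CSF) acts through another receptor and CX3CR1 is the receptor of the membrane-bound chemokine fractalkine.

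Counts came from bulk RNA-seq of 10 subcutaneous (s.c.) tumors of Panc02, a mouse pancreatic cancer cell line, grown in C57BL/6J mice labelled wild type. In both groups the mice were 12 weeks old and tumors were taken on day 16 after injection. The cancer cells of both groups had received a doxycycline-inducible Cas9. They carried a nontargeting guide in 5 tumors (sgNT) and a guide against Cda, the gene of cytidine deaminase, in the other 5 (sgCda). The guides acted in the injected cells alone, so the host cells of either group kept Cda intact. The study's methods describe single-cell cloning after editing and reserve a pool of clones for survival experiments, so these tumors did not come from that pool. Whether they grew from 1 clone or from uncloned cells is not given in the sources used here. The labels name no batch, and nothing in them says which tumors were handled together. The comparison asks whether targeting Cda in the cancer cells changes the signals for macrophages inside the tumor.

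Libraries held 28051907 to 39484964 assigned counts, so that a floor of 3 counts equalled 0.0760 to 0.107 CPM. CPM is the count relative to a library size scaled by trimmed mean of M values (TMM). Cda averaged 12.1 ± 1.76 CPM with the nontargeting guide and 9.77 ± 2.34 CPM with the Cda guide (SD, n = 5 per group), a difference within the spread between tumors (log2 fold change −0.30, 95% CI −0.67 to 0.064, edgeR unadjusted p = 0.0963). Cda transcript therefore did not check the labels. On the first principal component (40.7% of the variance), sgCda replicates 3 and 4 lay at opposite ends. Replicate 3 held the most skeletal muscle RNA of all 10 tumors, with 10 muscle markers summing to 2253 CPM against 1.65 to 555 CPM in the other 9. Replicate 4 had the largest share of mitochondrial counts, 5.82% against 3.47% to 3.81% in the other 9. It also had the largest share of uniquely aligned reads in no counted feature, 18.4%. Epithelial genes such as keratins summed to 592 to 924 CPM in sgNT and 570.0 to 1016 CPM in sgCda tumors, and 12 macrophage markers to 5667 to 7579 CPM and 5713 to 9178 CPM, so markers of both were found in every sample.

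The level of none of the 10 genes was shown to differ between sgCda and sgNT tumors. All 10 passed the filter on low counts. With edgeR's quasi-likelihood test, 0 of 10 had an adjusted p under 0.05, as had 0 (0%) of all 15299 genes tested. At an unadjusted p under 0.05 there were also 0 of 10, where the share over all genes was 2.5%. DESeq2 and limma-voom likewise gave 0 of 10 at either threshold. In 0 of 10 did the groups separate without overlap, against 0.601% of all genes. The fitted log2 fold change was below 0 in 8 genes and above 0 in 2, Ccl8 and Ccr2, with a median of −0.064 beside 0.0078 over all genes tested. Every one of the 10 intervals contained 0. In a bulk sample, fewer cells of a type and less RNA per cell cannot be told apart. The labels do not say whether the tumors came from separate cell preparations, so p-values measure only the spread between these samples.

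**Figure D1:**
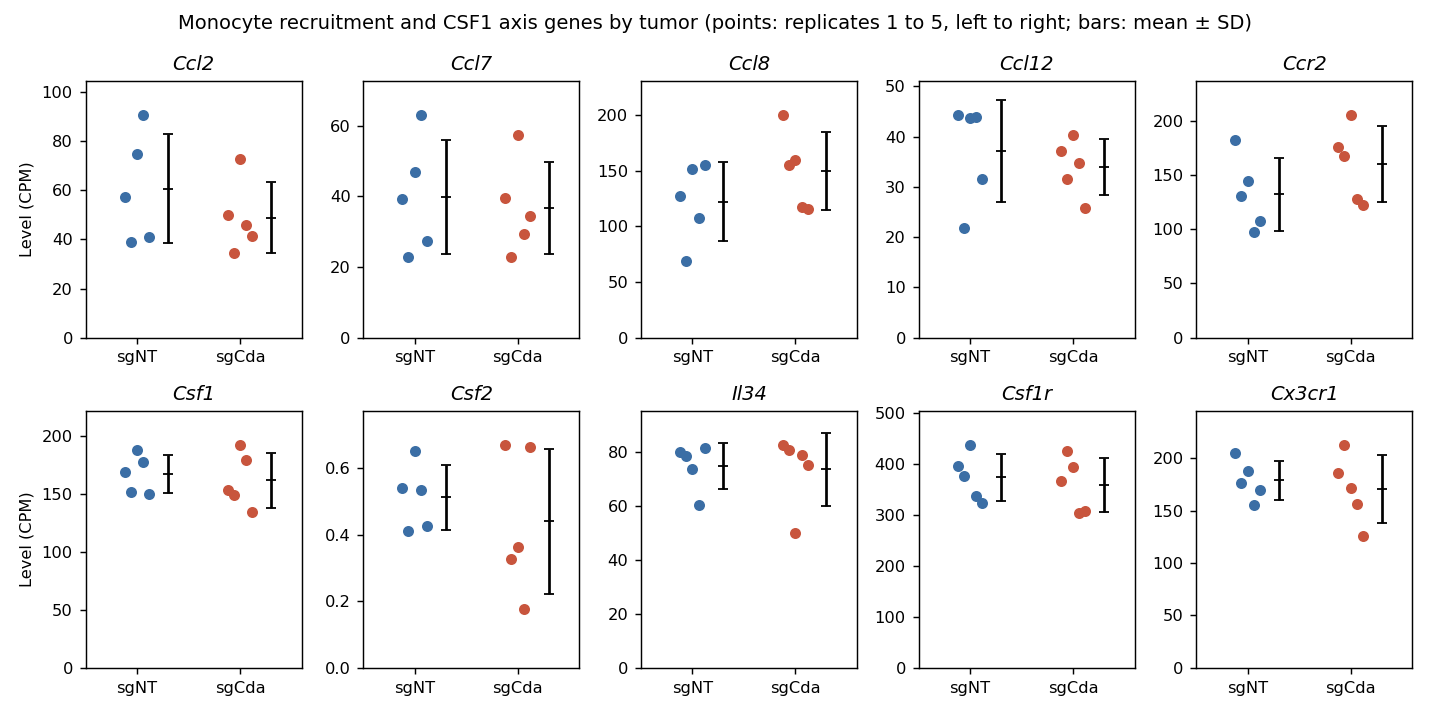
Level of each of the 10 genes (y axis, CPM, starting at 0) in the 5 sgNT and 5 sgCda tumors. Points are tumors in the order of their replicate number and bars give the mean ± SD. The groups overlap in all 10 panels, and Il34 in sgCda replicate 3 (50.02 CPM) lies below the other 9 tumors.

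The 4 chemokine genes lie in 1 cluster on the plus strand of chromosome 11 (GRCm38), in the order Ccl2 (82035571 to 82037453), Ccl7 (82045712 to 82047525), Ccl12 (82101845 to 82103400) and Ccl8 (82115185 to 82116799). Each has 3 exons in its longest coding transcript. Their coding sequences were 68.8% to 72.1% identical to one another, yet 0 of the 50-base windows of their transcripts occurred in another gene, so reads of that length could be told apart. No other gene shares their exonic bases.

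For Ccl8 and Ccl12, RefSeq (GRCm38.p6) gave a promoter, and the 250 bases before each start are shown because these 2 neighbours differed most in level among neighbours within these 4. Capitals mark matches, on either strand, to 6 motifs that were searched: the TATA box (TATAAA), the GC box (GGGCGG), the PU.1 core (AGGAAG), AP-1 (TGACTCA), GAS (TTCNNNGAA) and NF-kappaB.
Ccl8, chr11:82114935-82115184, plus strand: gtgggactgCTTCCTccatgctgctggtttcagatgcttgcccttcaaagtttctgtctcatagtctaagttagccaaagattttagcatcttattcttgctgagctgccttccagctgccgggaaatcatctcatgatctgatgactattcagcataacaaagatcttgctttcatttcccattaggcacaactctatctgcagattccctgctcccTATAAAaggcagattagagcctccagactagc
Ccl12, chr11:82101595-82101844, plus strand: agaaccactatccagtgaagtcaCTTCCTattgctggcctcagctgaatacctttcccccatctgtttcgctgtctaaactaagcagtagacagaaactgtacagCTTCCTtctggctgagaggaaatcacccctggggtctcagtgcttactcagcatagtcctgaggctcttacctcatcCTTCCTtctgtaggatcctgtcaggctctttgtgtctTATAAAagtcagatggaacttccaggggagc
Both had a TATA box on the plus strand, beginning 32 bases before the start of Ccl8 and 31 bases before that of Ccl12, a match found in 12.4% of the 32851 RefSeq promoters of the same length. The PU.1 core, on the minus strand, matched at 1 place in Ccl8 and at 3 places in Ccl12, and 29.5% of all promoters hold it. None of the matches overlapped another, and AP-1, GAS and NF-kappaB (4.46%, 7.02% and 3.90% of promoters) had no match in these 2 windows. The table matched 6 of the 10 genes, and it held no entry for Ccl2, Ccl7, Il34 or Csf1r.

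Ccl2, the best-known ligand of CCR2, had the most negative fold change of the 10. It was measured at 57.4, 39.1, 74.7, 90.8 and 40.9 CPM in sgNT replicates 1 to 5 and at 50.003, 34.3, 72.8, 46.0 and 41.3 CPM in the sgCda tumors. The sgCda values lay inside or just under the sgNT range, and only sgCda replicate 3 exceeded the sgNT mean. Means were 60.6 ± 22.2 and 48.9 ± 14.6 CPM (SD, n = 5 each), with a log2 fold change of −0.31 (SE 0.26, 95% CI −0.88 to 0.26, edgeR unadjusted p = 0.258). As a percent change, that interval ran from −45.6% to 19.8%.

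Ccl7, a second CCR2 ligand, gave 39.2, 22.9, 46.8, 63.2 and 27.3 CPM in sgNT and 39.7, 22.9, 57.4, 29.3 and 34.5 CPM in sgCda tumors. Its highest levels were in sgNT replicate 4 and sgCda replicate 3 and its lowest in replicate 2 of either group. Ccl7 varied more than 87.7% of all genes tested in its SD of log2 CPM within groups. The fitted log2 fold change of −0.12 (SE 0.30, 95% CI −0.77 to 0.53, edgeR unadjusted p = 0.702) turned positive without sgNT replicate 4 (0.11) or without sgCda replicate 2 (0.018).

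Ccl12, a mouse chemokine gene with no simple human counterpart, stood at 44.4, 21.8, 43.8, 44.0 and 31.6 CPM in sgNT tumors and at 37.2, 31.5, 40.3, 34.8 and 25.7 CPM in sgCda tumors. All 5 sgCda values fell within the sgNT range. Its means of 37.1 ± 10.1 and 33.9 ± 5.60 CPM (SD, n = 5 each) gave a log2 fold change of −0.13 (SE 0.19, 95% CI −0.56 to 0.30, edgeR unadjusted p = 0.517).

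Ccl8 encodes a ligand that in the mouse acts mainly on CCR8. Its level was 127, 68.9, 151, 107 and 155 CPM in sgNT and 200.3, 155, 159, 118 and 115 CPM in sgCda tumors. The highest value belonged to sgCda replicate 1 and the lowest to sgNT replicate 2, while the other 8 tumors of both groups were interleaved. The fitted log2 fold change was 0.29 (SE 0.22, 95% CI −0.19 to 0.78, edgeR unadjusted p = 0.206), with 3 of 5 sgCda tumors above the sgNT mean.

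Ccr2 lies on the plus strand of chromosome 9 (124101950 to 124113557). This receptor gene, a marker of classical monocytes, had the smallest p of the 10. Levels were 182, 130.4, 144, 97.0 and 108 CPM in sgNT and 176, 168, 206, 128 and 122 CPM in sgCda tumors. sgCda replicate 3 exceeded every sgNT tumor and the other 4 sgCda tumors lay within the sgNT range. The means, 132 ± 33.4 and 160.0 ± 35.0 CPM (SD, n = 5 each), differed by a log2 fold change of 0.27 (SE 0.19, 95% CI −0.14 to 0.69, edgeR unadjusted p = 0.170). In percent, the interval ran from −9.04% to 60.9%. Without sgNT replicate 1, the highest of the controls, the log2 fold change was 0.41 (edgeR unadjusted p = 0.0412, adjusted p = 0.9999). It fell to 0.17 without sgCda replicate 3 and to 0.18 without sgNT replicate 4 (edgeR unadjusted p = 0.381 and 0.363).

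Cx3cr1, which marks nonclassical monocytes and resident macrophages, lies on the minus strand of chromosome 9 (119901616 to 120069879). It stood at 205, 177, 187, 155 and 169.7 CPM in sgNT tumors and at 185, 213, 171, 156 and 126 CPM in sgCda tumors. The sgCda tumors held both the highest and the lowest of the 10 values. They gave a log2 fold change of −0.070 (SE 0.13, 95% CI −0.35 to 0.21, edgeR unadjusted p = 0.597). Among 7 nonclassical monocyte markers, the median log2 fold change was −0.14 and Ace was lower at an unadjusted p of 0.0372 (edgeR; log2 fold change −0.36, adjusted p = 0.9996).

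Csf1, the main growth factor of macrophages, lies on the minus strand of chromosome 3 (107741048 to 107760469). Its promoter is also shown, and Csf1 was the steadiest of the 10 genes. Whether promoter motifs relate to steadiness was not tested.
Csf1, chr3:107760470-107760719, minus strand: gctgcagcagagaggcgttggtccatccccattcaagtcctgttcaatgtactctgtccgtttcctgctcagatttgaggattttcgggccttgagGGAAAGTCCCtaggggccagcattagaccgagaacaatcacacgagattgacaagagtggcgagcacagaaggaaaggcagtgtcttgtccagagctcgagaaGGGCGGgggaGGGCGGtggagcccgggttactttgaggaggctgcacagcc
There was no TATA box in this window. It held 2 GC boxes, beginning 51 and 41 bases before the start, which 32.7% of all promoters match, and 1 NF-kappaB match on the opposite strand from the gene, spanning bases 154 to 145 before the start.
Csf1 was measured at 169, 152, 188, 178 and 150.3 CPM in sgNT and at 154, 149, 193, 180.0 and 135 CPM in sgCda tumors, so that the highest tumor was 1.43 times the lowest. The ranges of both groups largely coincided. Means of 168 ± 16.3 and 162 ± 23.6 CPM (SD, n = 5 each) gave a log2 fold change of −0.047 (SE 0.10, 95% CI −0.28 to 0.18, edgeR unadjusted p = 0.662). The interval, −17.5% to 13.5%, was the narrowest of the 10.

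Il34 encodes the second ligand of CSF1R and lies on the minus strand of chromosome 8 (110741829 to 110805924). Its levels were 79.9, 78.6, 73.6, 60.5 and 81.3 CPM in sgNT and 82.7, 80.8, 50.02, 79.0 and 75.2 CPM in sgCda tumors. In 4 of 5 sgCda tumors it exceeded the sgNT mean, and replicate 3 was the lowest of all 10 tumors. Its group difference was a log2 fold change of −0.025 (SE 0.13, 95% CI −0.32 to 0.27, edgeR unadjusted p = 0.858), and without sgCda replicate 3 it was 0.086.

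Csf1r, the receptor of both ligands, lies on the plus strand of chromosome 18 (61100598 to 61132149) and had 8605 to 15652 counts per library, the most reads behind any of the 10. The 5 sgNT tumors gave 398, 377, 438, 337 and 324 CPM and the 5 sgCda tumors 366, 426, 394, 305 and 308 CPM. Both groups spanned nearly the same range, with replicates 4 and 5 the lowest in each. Means of 375 ± 46.4 and 360 ± 53.0 CPM (SD, n = 5 each) corresponded to a log2 fold change of −0.058 (SE 0.12, 95% CI −0.31 to 0.20, edgeR unadjusted p = 0.624). A part of its exonic bases, 873 of 5774, is shared with Hmgxb3 on the opposite strand. Whether HTSeq used strand is not given in the sources used here, and without strand such reads cannot be told apart. The same holds for 96 bases of Csf2, 97 of Il34 and 78 of Cx3cr1.

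Csf2, on the minus strand of chromosome 11 (54247271 to 54249667), was close to the limit of detection. It had 16, 13, 21, 17 and 17 counts in the sgNT and 23, 12, 13, 5 and 21 counts in the sgCda libraries, 158 in all. These equal 0.411 to 0.651 CPM in sgNT and 0.177 to 0.671 CPM in sgCda tumors, above the 3-count limit in every library. The log2 fold change of −0.21 had an interval from −0.96 to 0.55 (SE 0.34, edgeR unadjusted p = 0.554), the widest of the 10.

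**Figure D2:**
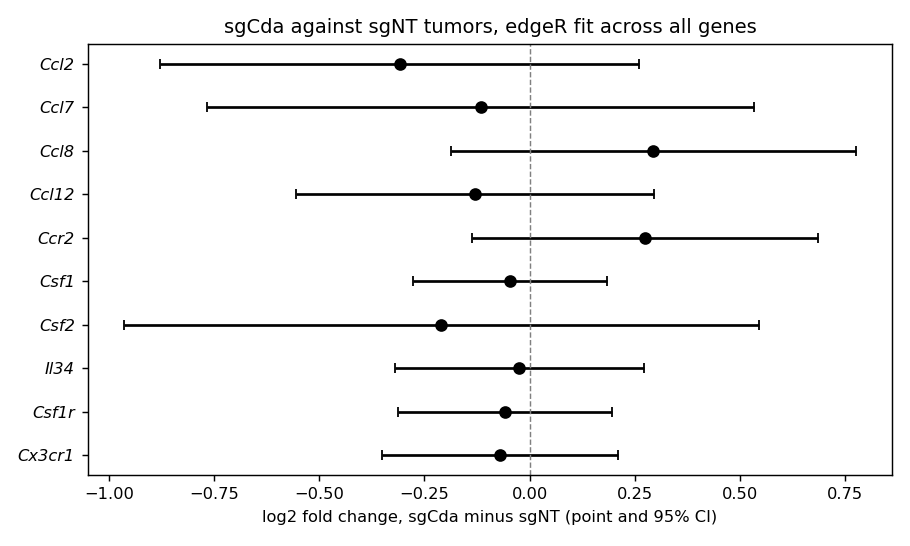
Log2 fold change of sgCda against sgNT tumors (x axis) for the 10 genes, with points for the estimate and bars for the 95% CI of the edgeR fit across all genes. Every bar crosses 0, from the narrow interval of Csf1 (−0.28 to 0.18) to the wide one of Csf2 (−0.96 to 0.55).

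The 10 genes differed in how much they varied from tumor to tumor. Within groups, the SD of log2 CPM lay above the median of all genes (0.21) for 8 of 10. The chemokine genes and Csf2 were the most variable, at 0.54 for Ccl7, 0.51 for Csf2, 0.47 for Ccl2, 0.41 for Ccl8 and 0.36 for Ccl12. With 5 to 23 counts of Csf2 per library, its SD also holds counting error, which was not separated from variation between tumors. Csf1 (0.18) and Csf1r (0.20) fell below that median, and Cx3cr1 (0.23), Il34 (0.25) and Ccr2 (0.34) above it. From the lowest to the highest tumor, Csf2 spanned 3.79-fold, Ccl8 2.91-fold and Ccl7 2.76-fold, against 1.44-fold for Csf1r and 1.43-fold for Csf1.

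Per kilobase of exonic bases, the scale on which genes can be compared, Ccl8 led at 265 ± 70.9 CPM per kilobase (SD over the 10 tumors). It was followed by Ccl12 (66.1 ± 14.7), Csf1r (63.6 ± 8.25), Ccl2 (48.1 ± 16.5), Ccl7 (47.8 ± 17.4), Cx3cr1 (38.8 ± 5.62), Il34 (37.9 ± 5.42), Csf1 (31.2 ± 3.66), Ccr2 (21.6 ± 5.24) and Csf2 (0.596 ± 0.205). Ccl8 exceeded Ccl12 3.97-fold and in 10 of 10 tumors (two-sided exact sign-flip permutation test of log2 levels, p adjusted over 9 neighbours = 0.00586). Csf1r was above Ccl2 by 1.38-fold in 9 of 10 tumors (adjusted exact p = 0.0308). Csf1 was above Ccr2 by 1.47-fold and Ccr2 above Csf2 by 37.8-fold, both in 10 of 10 tumors (adjusted exact p = 0.00586 each). The remaining neighbours were not told apart: Ccl12 and Csf1r, Ccl2 and Ccl7, Ccl7 and Cx3cr1, Cx3cr1 and Il34, and Il34 and Csf1 (adjusted exact p = 0.0914 to 0.775). With the length of the longest coding transcript instead, 5 genes changed place, and Ccl8 still stood first, Ccr2 ninth and Csf2 last. The permutation results above were computed with exonic length only. Between these lengths Ccl2 went from 1138 to 813 bases and Csf1r from 5774 to 4701, so the gap between them was smaller with the latter.

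**Figure D3:**
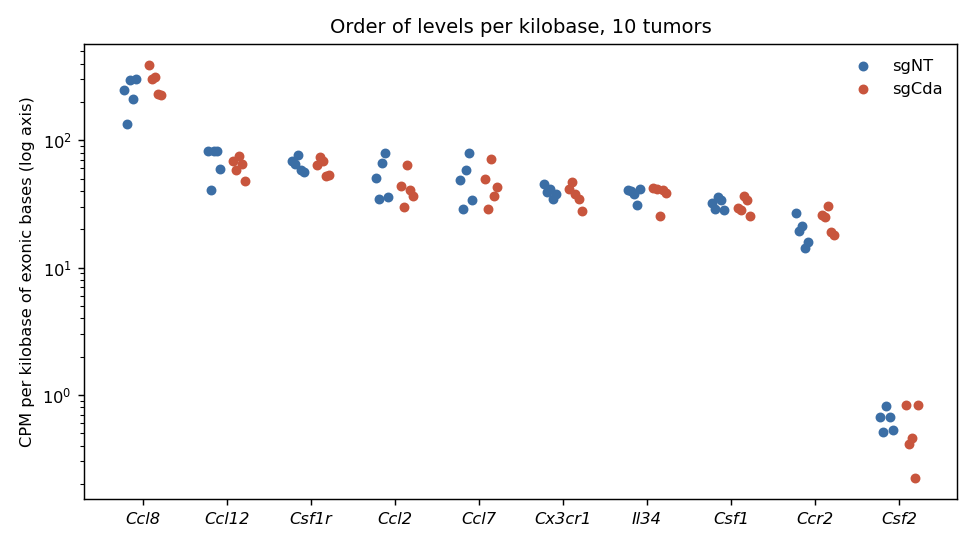
Level per kilobase of exonic bases (y axis, log scale) of the 10 genes, ordered from the highest mean log2 level to the lowest, with 1 point for each tumor. Ccl8 stands above the rest (135 to 392 CPM per kilobase), Csf2 far below (0.221 to 0.839), and sgNT and sgCda points intermingle throughout.

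Of 45 pairs of genes compared across the 10 tumors, 1 passed both tests. Ccl2 and Ccl7, which encode ligands of the same receptor from adjacent loci, rose and fell together (Pearson r = 0.948, Spearman rho = 0.964, permutation test, p = 8.0e-05 for either and 0.0036 when adjusted over the 45 pairs). Without sgNT replicates 3 and 4, which lay farthest from the Ccl2 median, r was 0.935. Within groups r was 0.989 in sgNT and 0.948 in sgCda tumors (n = 5 each). Per kilobase, the geometric mean of the ratio of Ccl2 to Ccl7 was 1.01, with an SD of 0.17 for the log2 ratio over the 10 tumors. Both genes were high in sgNT replicates 3 and 4 and in sgCda replicate 3 and low in replicate 2 of either group. Skeletal muscle markers summed to 370, 555 and 2253 CPM in the first 3 tumors, and to 1.83 and 324 CPM in the other 2. Muscle RNA was also high (535 CPM) in sgCda replicate 1, where Ccl2 was intermediate. Its part in the relation was not tested.

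Csf1r and Cx3cr1, both expressed by macrophages, had the next highest correlation (r = 0.809, adjusted permutation p = 0.0686, rho = 0.855, adjusted permutation p = 0.0415). Ccl2 and Ccl12 gave r = 0.785 and rho = 0.867 (adjusted permutation p = 0.0817 and 0.0415). Both pairs thus passed on ranks and not on levels. Neither CSF1R ligand followed its receptor: r was 0.314 for Csf1 and −0.096 for Il34 with Csf1r (adjusted permutation p = 0.861 and 0.940). Nor did Ccl2 follow Ccr2 (r = 0.0046, adjusted permutation p = 0.997), although without sgNT replicates 3 and 4 that r was 0.650.

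The 3 lowest coefficients all involved Il34. They were −0.742 with Ccl7, −0.699 with Ccl2 and −0.600 with Csf1, none of which passed (adjusted permutation p = 0.0817, 0.111 and 0.250). Il34 was lowest in sgCda replicate 3 and sgNT replicate 4, the tumors with the most Ccl7. In those 2 tumors the 8 neutrophil markers summed to 58.4 and 61.3 CPM, against 100.2 to 157 CPM in the other 8. The same 2 tumors had the lowest sums of dendritic cell markers (116 and 123 CPM). They also had the highest sums of muscle markers (2253 and 555 CPM). The part of any of these lists in the relation was not tested.

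**Figure D4:**
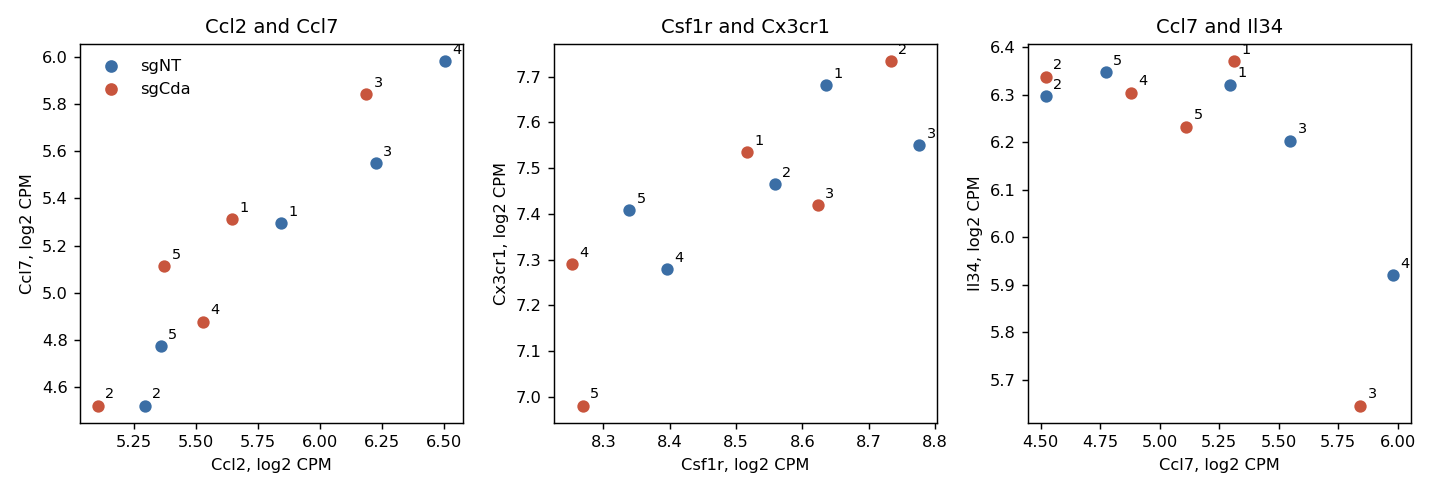
Log2 CPM of 2 genes against each other in the 10 tumors, for Ccl2 and Ccl7, Csf1r and Cx3cr1, and Ccl7 and Il34, with numbers giving the replicate and colors the group. Ccl2 and Ccl7 line up (r = 0.948), and in the last panel sgNT replicate 4 and sgCda replicate 3 hold both the most Ccl7 and the least Il34.

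Ratios within a tumor do not depend on how libraries are scaled, and 6 were compared between groups with an exact two-sided permutation of the group labels (smallest possible p 0.00794). Bulk RNA does not show which cells carried Ccr2 or Csf1r. The ratio of Ccr2 to Csf1r, a monocyte receptor over the receptor most macrophages carry, had the smallest p. In CPM it was 0.458, 0.346, 0.330, 0.288 and 0.332 in sgNT and 0.481, 0.394, 0.522, 0.419 and 0.397 in sgCda tumors. All 5 sgCda tumors were above the sgNT mean, and only sgNT replicate 1 reached into their range. The log2 ratio averaged −1.53 ± 0.25 with the nontargeting and −1.18 ± 0.18 with the Cda guide (SD, n = 5 per group), a difference of 0.34 (exact p = 0.0397) that did not pass after adjustment over the 6 ratios (0.238). Without sgNT replicate 1, whose removal leaves no overlap, the difference was 0.44 (exact p = 0.00794, the smallest possible, adjusted 0.0476). Leaving out any other single tumor gave an adjusted exact p of 0.214 to 0.524. Without sgCda replicates 3 and 4 the difference was 0.29 (exact p = 0.125).

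Ccl2 over its receptor Ccr2 was 0.316, 0.300, 0.517, 0.936 and 0.381 in sgNT and 0.284, 0.205, 0.354, 0.361 and 0.338 in sgCda tumors. None of the 5 sgCda tumors exceeded the sgNT mean on the log2 scale, while 3 sgNT tumors lay above every sgCda tumor. The difference in log2 ratio was −0.56 (exact p = 0.159, adjusted 0.476). The other 4 ratios moved little. Csf1 over Csf1r differed by 0.0084, Il34 over Csf1r by 0.023, Il34 over Csf1 by 0.014 and Cx3cr1 over Csf1r by −0.023 in log2 (exact p = 0.794 to 0.960). Per kilobase, Il34 exceeded Csf1 in 8 of 10 tumors, with sgCda replicate 3 (0.699) and sgNT replicate 4 (0.917) as the exceptions.

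**Figure D5:**
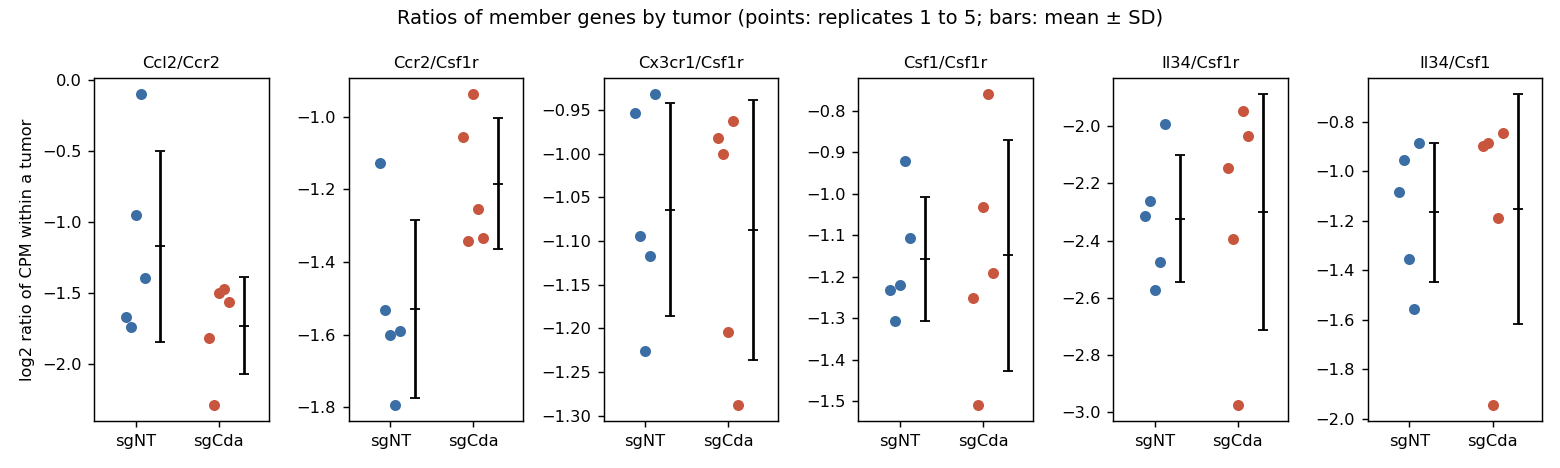
Log2 ratio of the CPM of 2 genes within each tumor (y axis, a separate scale for each panel) for 6 ratios, in 5 sgNT and 5 sgCda tumors, with bars for the mean ± SD. In the second panel, Ccr2 over Csf1r, the sgCda mean is −1.18 and the sgNT mean −1.53, and sgNT replicate 1 alone lies among the sgCda tumors.

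In the wider pathway no gene passed the adjusted threshold either. Of 12 other ligands that attract monocytes, such as Ccl5, Cxcl12 and Vegfa, all 12 were tested, 5 with a fold change above 0 and 7 below, and a median of −0.065. Cx3cl1, the fractalkine gene and ligand of CX3CR1 (chromosome 8, 94772009 to 94782427), had the smallest p among them. It was measured at 59.5, 69.6, 81.3, 78.3 and 62.9 CPM in sgNT and 51.6, 60.9, 64.3, 55.3 and 51.7 CPM in sgCda tumors. The sgCda tumors were lower as a rule and 0 of 5 exceeded the sgNT mean, although 2 lay above the lowest sgNT tumor. The log2 fold change of Cx3cl1 came to −0.31 (SE 0.10, 95% CI −0.53 to −0.085, edgeR unadjusted p = 0.0112, adjusted p = 0.9996). Of 9 further receptor genes (chemokine receptors and decoys, Flt1 and Plaur), 8 were tested, 4 in each direction (median −0.012). Of 14 other growth factor, cytokine and receptor genes, such as Csf3r, Kit, Flt3, Il3ra and Sdc1, 10 were tested, 7 above 0 and 3 below (median 0.084). All 20 genes of signaling below CSF1R, such as Tyrobp and Spi1, were tested, 8 above 0 and 12 below (median −0.017). In each of these 3 lists 0 genes had an unadjusted p under 0.05 by edgeR.

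Among markers of cells that could make or carry these signals, the 12 macrophage genes had a median log2 fold change of −0.0072, the 10 fibroblast genes −0.058, the 8 endothelial genes −0.19, the 8 T cell genes 0.12, the 8 dendritic cell genes 0.089 and the 7 tested neutrophil genes 0.39. None of these genes passed the adjusted threshold of edgeR, and 1 of them, the dendritic cell gene H2-DMb2, fell under 0.05 without adjustment (log2 fold change −0.70, edgeR unadjusted p = 0.0433, adjusted p = 0.9996). The 9 tested muscle genes were all above 0 (median 1.68) with none past an unadjusted p of 0.05, and adipocyte genes had a median of 0.55 over 6. The adipocyte list stood apart in sgCda replicate 2, where it summed to 459.6 CPM, against 12.6 to 76.4 CPM in the other 4 sgCda tumors and 11.5 to 130.1 CPM in the sgNT tumors. Only 2 of 8 keratinocyte genes passed the filter, both below 0, and their list was highest in sgNT replicate 4 (28.0 CPM). Of 7 tested epithelial genes the median was −0.016, and Epcam had an unadjusted edgeR p of 0.0305 (log2 fold change 0.78, adjusted p = 0.9996).

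The genes whose log2 CPM most resembled each member across the 10 tumors were sought among 11356 genes and are given as a description, with the tumors as the only points. Il34 had the closest companions: Mxra8 (r = 0.988), Col28a1 (0.984), a collagen gene, and C1qtnf1 (0.982). Nearest to Csf1 was Prkx (0.968), and nearest to Csf1r were Gm156 (0.958) and Slc43a2 (0.952). After each other, Ccl2 and Ccl7 were closest to Klhl2 (0.941) and Cdv3 (0.936), and Pim1, a kinase gene, was among the 3 nearest of both Ccl7 (0.934) and Ccl12 (0.891). Ccl12 was also near Zfp36 (0.875), whose protein binds AU-rich messenger RNA. For Ccl8 the nearest was Commd4 (0.922), for Ccr2 Rab11fip4 (0.915), and for Cx3cr1 Zfp366 (0.933). For Csf2 it was Lrrc8d (0.981), with at most 23 counts of Csf2 in a library.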

How the data were processed

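Poly(A) RNA of 10 s.c. Panc02 tumors (5 sgNT, 5 sgCda) was sequenced by the authors with a stranded mRNA kit, aligned to GRCm38 (mm10) with TopHat and Bowtie and counted per Ensembl gene with HTSeq. The strand setting and annotation release are not given in the sources used here. The deposited values are raw whole-number counts per gene, not normalized, for 37417 genes, of which 11115 had 0 counts in every tumor. HTSeq's 5 summary lines stayed out of library sizes and tests. Their reads in no counted feature were 10.3% to 18.4% of uniquely aligned reads, and where those reads lay is not given. Symbols matched 32608 identifiers. Groups came from sample titles.

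Genes were filtered with filterByExpr (minimum count 10, minimum total 15), scaled by TMM and tested by edgeR 4.0.16 (R 4.3.3), with Benjamini-Hochberg adjustment over all 15299 genes. The standard error and the 95% CI were derived from the F statistic. Correlations used log2 CPM (prior count 2) and 100000 permutations. A pair counted as passing when both r and rho had an adjusted p under 0.05. Exonic lengths and positions came from GENCODE, promoters from RefSeq. The 3-count limit covers counting error only, and the 95% CI of the fit includes the spread between tumors. The members and gene lists were chosen with earlier results of these data known, and the list of classical monocyte markers is not reported here. Named genes were the members, Cda, the up to 2 genes per list with the smallest unadjusted p under 0.05, and the 3 genes nearest to each member (mean log2 CPM at least 2). Alternatives were DESeq2 1.42.0 (size factors or Wald test), limma-voom (limma 3.58.1), library totals, 2 other filters, the replicate block, a prior count of 0.5, transcript length and leaving out each tumor. Leaving out sgCda replicates 3 and 4 together was added after seeing the data.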

Additional observations from a re-analysis of the deposited data

Results flagged for a closer look

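Il34 in sgCda replicate 3 was set apart from the other 4 tumors of its group, with a log2 CPM of 5.65 against 6.23 to 6.37. The screen looked for a single tumor far from the rest in 32 groups of 5 values (10 genes and 6 ratios in either group), of which chance sets apart about 1 in 20, or 1.6 in all. The same tumor held the most skeletal muscle RNA (2253 CPM summed over 10 markers) and the second highest Ccl7, whose part in the low value was not tested.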

How the results depend on the processing

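No gene passed the adjusted threshold of edgeR, DESeq2 or limma-voom under any alternative, and Ccl2, Ccl8, Ccl12 and Ccr2 kept the sign of their fold change in all 18. At an unadjusted p under 0.05, the filter of 1 count in any tumor gave 830 of 26302 genes, and leaving out 1 tumor gave 280 to 747, the highest without sgCda replicate 3. Among the 10 genes the unadjusted count was 0 to 1 when 1 tumor was left out, 1 with the replicate block (Ccr2, edgeR unadjusted p = 0.0163) and 1 without sgCda replicates 3 and 4 (Csf1, log2 fold change −0.20, edgeR unadjusted p = 0.0432). The labels do not say whether the numbers in the titles pair tumors. Correlations were taken across genes on deviations of log2 CPM from the mean of each group. On these deviations, same-numbered tumors correlated at −0.43 to 0.34. By that measure sgNT replicates 3 and 5 correlated most with the sgCda tumor of their number. That check cannot settle pairing, so the block stayed an alternative. With it 325 genes had an edgeR unadjusted p under 0.05. When 1 tumor was left out, the log2 fold change ranged from −0.50 (without sgCda replicate 3) to −0.12 (without sgNT replicate 4) for Ccl2, −0.27 (without sgNT replicate 2) to −0.044 (without sgCda replicate 5) for Ccl12, 0.14 (without sgNT replicate 2) to 0.40 for Ccl8, 0.17 to 0.41 for Ccr2, −0.41 (without sgCda replicate 1) to −0.019 (without sgCda replicate 4) for Csf2, −0.34 to 0.11 for Ccl7, −0.12 to 0.013 for Csf1, −0.12 to 0.0045 for Csf1r, −0.16 to 0.021 for Cx3cr1 and −0.097 to 0.086 for Il34. Differences in log2 ratio ranged from −0.70 (without sgNT replicate 2) to −0.29 (without sgNT replicate 4) for Ccl2/Ccr2, −0.089 to 0.099 for Csf1/Csf1r, −0.065 to 0.19 for Il34/Csf1r, −0.083 to 0.21 for Il34/Csf1, −0.063 to 0.027 for Cx3cr1/Csf1r and 0.28 to 0.44 for Ccr2/Csf1r. Without sgCda replicates 3 and 4, Csf2 (0.11), Il34 (0.087) and the Csf1/Csf1r ratio (−0.16) turned sign. The causes were not tested. Places in the order of levels changed for 5 genes with transcript length, for 4 without sgCda replicates 3 and 4, and for 0 to 2 without 1 tumor. Ccl2 and Ccl7 passed as a pair under all 14 alternatives. Csf2 had the fewest reads, at 5 to 23 counts per library.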
